A study of Homo sapiens with 4 samples.

Results

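The let-7a mimic was compared with a control mimic (miRCon) in a pair of libraries from siCon-treated cells and in another pair from siMYCN-treated cells, where siCon is a control siRNA and siMYCN is an siRNA against MYCN. All 4 libraries came from BE(2)C:MYCN-ORF, an established human neuroblastoma line whose label names an added MYCN open reading frame, so the controls carry it too. PolyA RNA was extracted 48 hours after transfection and sequenced. Each combination of siRNA and mimic was 1 library, so there is no replicate, and the pairs, which share no library, serve as a check of each other. Of 19826 gene rows, 5672 had a mean value of at least 20 over the 4 libraries, on the scale of the back-transformed deposited values, which resemble TPM (transcript level per length and library) and are called TPM-like. Values of a gene are given with the control mimic first and let-7a next. The mimic itself was not measured, its sequence is not in the labels, and only RNA, not protein, was assayed.

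let-7 is a family of microRNAs that rises as cells differentiate. It is loaded into Argonaute proteins and pairs through its seed, the bases near its 5′ end, with matching letters in the 3′ untranslated region (3′ UTR) of an mRNA, whose translation and stability then fall. LIN28 proteins block its maturation and are themselves targets, and in neuroblastoma let-7 is known for its link to LIN28B and MYCN.

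The mature sequences below show what the mimic is named after and how close the family is, with the seed (bases 2 to 8) in capitals. They are RefSeq's, annotated on GRCh38.p14. There, 11 mature microRNAs carry the let-7a seed. let-7i-5p is shown because it differs from let-7a-5p at 4 of 22 bases, all outside the seed, and miR-98-5p because it carries the seed under another family name, with 2 differences.
hsa-let-7a-5p: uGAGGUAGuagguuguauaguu
hsa-let-7i-5p: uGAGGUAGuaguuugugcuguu
hsa-miR-98-5p: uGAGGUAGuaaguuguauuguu

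Target sites were read from the longest GENCODE release 29 3′ UTR of each gene, on GRCh38. An 8mer is CTACCTCA, the match to bases 2 to 8 followed by A, a 7mer-m8 is CTACCTC without that A, a 7mer-A1 is TACCTCA without the match to base 8, and a 6mer is TACCTC alone. The words were searched on the transcript strand only, and each site was counted once, in its longest class. The 8mer was present in 3.8% of 18608 annotated 3′ UTRs, and some 7mer or 8mer site in 15.9%. A match is a description of the letters and does not show binding.

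The windows below, of 30 bases each, are written 5′ to 3′ with the match in capitals. Among established targets with a mean of at least 20, they belong to the 3 with the lowest mean log2 fold change of the pairs. They cover the 4 sites of IGDCC3, the 5 of LIN28B and the 2 of DICER1.
IGDCC3 8mer site at chr15:65328450-65328479 on the minus strand: ttgctgttttggctctcagcacCTACCTCA
IGDCC3 8mer site at chr15:65328368-65328397 on the minus strand: cccacagagcccgaatgcactcCTACCTCA
IGDCC3 8mer site at chr15:65328217-65328246 on the minus strand: ttccagatgtgaaagaaaatgtCTACCTCA
IGDCC3 7mer-m8 site at chr15:65328140-65328169 on the minus strand: gcccctcctgcccacagcccacCTACCTCt
LIN28B 8mer site at chr6:105078805-105078834 on the plus strand: ttcctttacccggttgcaaagtCTACCTCA
LIN28B 7mer-m8 site at chr6:105081232-105081261 on the plus strand: tattatgtactgatgatagtaaCTACCTCt
LIN28B 8mer site at chr6:105081414-105081443 on the plus strand: ttactctgtttacagcaaaaggCTACCTCA
LIN28B 7mer-m8 site at chr6:105082853-105082882 on the plus strand: agcttgaaaatgatggtgttgaCTACCTCt
LIN28B 7mer-A1 site at chr6:105083037-105083066 on the plus strand: attatcctgtgtagtatttagatTACCTCA
DICER1 7mer-A1 site at chr14:95089135-95089164 on the minus strand: cttgtaggcactcttcacttaaaTACCTCA
DICER1 7mer-A1 site at chr14:95087574-95087603 on the minus strand: gcattgcacttggtaccatgcttTACCTCA

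The next windows are examples from established targets with an 8mer or with 2 sites that were not lower in both pairs, or hardly lower. They are shown because their match is spelled like those above. Others that fit this description, such as IGF2BP3 and IGF1R, are not printed, nor is the 7mer-A1 site of GALNT1.
INSR 8mer site at chr19:7114656-7114685 on the minus strand: gattttcttttttcagcacagtCTACCTCA
GALNT1 8mer site at chr18:35709792-35709821 on the plus strand: aaaaaaataaggattgactgggCTACCTCA
MYCN 7mer-A1 site at chr2:15946580-15946609 on the plus strand: ttcatacctaagtactgtaataaTACCTCA
MYCN 7mer-A1 site at chr2:15946944-15946973 on the plus strand: ctgcatcttatagcactttgaaaTACCTCA

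Over all 5672 genes the let-7a effect was small. The median log2 fold change of value + 1, let-7a over control mimic, was -0.016 in the siCon pair and -0.046 in the siMYCN pair, and 35.9% of genes were lower in both pairs while 21.3% were higher in both. The limma additive model, which takes the siRNA state as a further term and sets each let-7a effect against the difference between the pairs, called 0 genes in the higher direction (0%) and 0 in the lower (0%), with adjusted p by Benjamini-Hochberg held under 0.05 and a smallest value of 0.596. At an unadjusted p under 0.05 it gave 156 higher (2.75%) and 310 lower genes (5.47%). On values rescaled by median ratios the same limma model called 35 higher (0.617%) and 18 lower (0.317%). The rescaled fit also borrowed more from other genes, with 21.16 prior degrees of freedom against 4.20 beside 1 residual degree of freedom in each fit. Whether that difference makes the calls was not tested. These calls were made under that setting alone: limma called 0 genes in either direction when values were rescaled without mitochondrial transcripts (smallest adjusted p = 0.215), with the other pseudocounts and filters, without a trend and with robust variance. Fold changes are therefore given as values, and the rescaled calls are named as such.

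Both pairs showed a change of 1.5-fold or more in 1 direction for 4 lower genes (0.0705%), IGDCC3, LIN28B, STX10 and XYLT2, and for 1 higher gene (0.0176%), FAM195A. The effects in the pairs had a Spearman rho of 0.16 across genes, which share libraries and are no replicates. The median gene differed by 0.15 between the pairs on the log2 scale, and 29 genes (0.51%) differed by at least 1. The genes just inside the mean of 20 were EPS15 (log2 fold changes -0.27 and -0.091) and NAALAD2 (0.016 and -0.14), and those just outside were CTDP1 (0.12 and -0.19) and DDX28 (0.40 and 0.077).

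**Figure D1:**
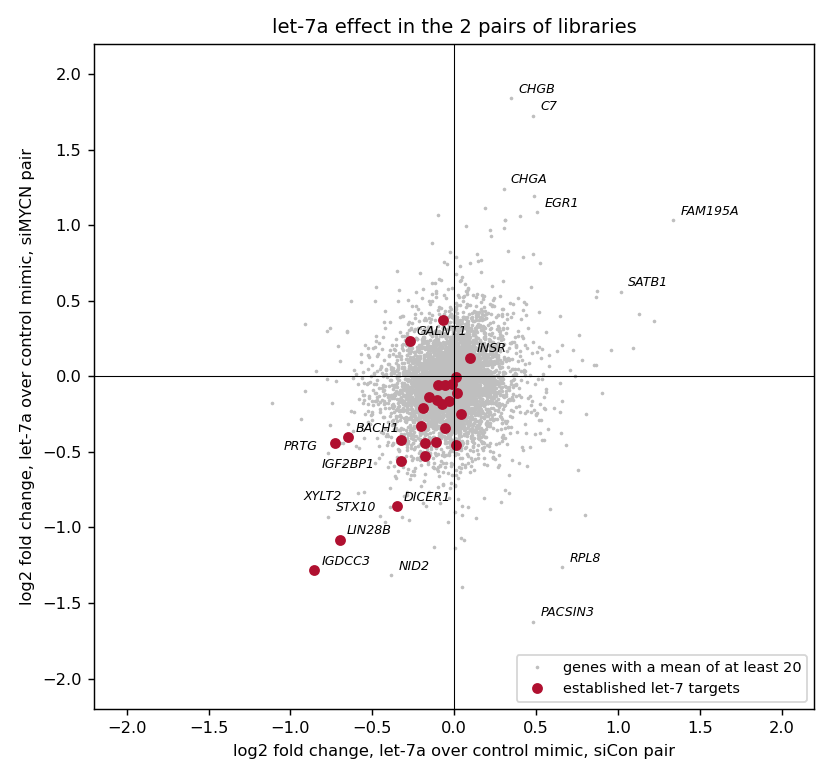
Each point is a gene with a mean of at least 20, with its log2 fold change of let-7a over control mimic in the siCon pair on the x axis and in the siMYCN pair on the y axis, 1 library per group. Established let-7 targets (red) lie mostly at the lower left, with IGDCC3 at -0.86 and -1.28 and LIN28B at -0.70 and -1.08.

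The established let-7 targets were lower with let-7a as a group. The list came from general knowledge, but it and the other gene lists were chosen with earlier results of these data known. Of 52 listed genes 27 had a mean of at least 20, and 20 of these (74.1%, against 35.9% of all genes) were lower in both pairs, while 1, INSR, was higher in both and 6 had opposite signs. Their median log2 fold change was -0.11 in the siCon pair and -0.25 in the siMYCN pair, against -0.016 and -0.046 over all genes. By limma 10 of them were lower at an unadjusted p under 0.05, against 5.47% of all genes, and 0 passed adjustment over all genes. With rescaled values limma called 3, all lower (0.317% of all genes were): IGDCC3, LIN28B and DICER1. The median stayed below 0 when rescaled, at -0.16.

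IGDCC3, a cell surface protein of the immunoglobulin superfamily related to the DCC receptors, had the lowest shared value. Its values were 71.2 and 38.9 in the siCon pair, and 19.8 and 7.54 in the siMYCN pair, a mean log2 fold change of the pairs of -1.07 ± 0.15 (SE of limma, 4 libraries; unadjusted p = 0.000795, adjusted p = 0.596). Both let-7a libraries were below their own control library, but the siCon let-7a library was above the siMYCN control library, so the levels overlapped across siRNA states. Its 4 sites, printed above, comprise 3 8mers and 1 7mer-m8 within a 3′ UTR of 1782 bases. PRTG, a relative of IGDCC3 in the same protein family, was at 40.2 and 23.8 in the siCon pair and at 29.6 and 21.5 in the siMYCN pair. It had log2 fold changes of -0.73 and -0.44, and here the larger one was in the siCon pair.

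LIN28B, which keeps let-7 precursors from being processed, was at 157 and 96.5 in the siCon pair and at 119 and 55.5 in the siMYCN pair. Both let-7a libraries lay below both control libraries. Such a separation is described for single genes here and below, and the share of all genes that show it is not given. Averaged over the pairs, the log2 fold change was -0.89 ± 0.11 (SE of limma; unadjusted p = 0.000468, adjusted p = 0.596, and adjusted p = 9.66e-05 with rescaled values). LIN28A, its paralog, was at 0.363 or below in every library.

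DICER1, the RNase III enzyme that cuts microRNA precursors into mature duplexes, was at 60.5 and 47.2 in the siCon pair and at 50.1 and 27.1 in the siMYCN pair. Again both let-7a libraries lay below both controls. The log2 fold change was -0.35 in the siCon pair and -0.86 in the siMYCN pair, -0.61 ± 0.15 over both (SE of limma; unadjusted p = 0.00819, adjusted p = 0.596, and adjusted p = 0.0317 when rescaled). Its 2 sites in the 3′ UTR are both 7mer-A1.

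Among mRNA-binding and chromatin proteins on the list, IGF2BP1, an oncofetal protein that stabilises mRNAs, was at 71.8 and 57.1 in the siCon pair and at 77.4 and 52.1 in the siMYCN pair, log2 fold changes of -0.33 and -0.56. Both let-7a libraries were below both controls, and its 3′ UTR held 5 sites. Its paralog IGF2BP3, with 1 site, was at 74.2 and 76.4 and at 72.8 and 61.2, so only the siMYCN let-7a library stood lower. IGF2BP2 was at 0.185 or less throughout. The histone chaperone NAP1L1 was at 212 and 170 and at 269 and 201, log2 fold changes of -0.32 and -0.42. The architectural chromatin protein HMGA1 had -0.059 and -0.34, and the chromatin remodeller SMARCAD1 had -0.19 and -0.21.

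Transcription factors and signalling genes spanned a range of values. BACH1, a repressor of oxidative stress genes, was at 29.9 and 18.7 in the siCon pair and at 28.4 and 21.2 in the siMYCN pair, with 2 8mers. Both let-7a libraries were below both controls. PLAGL2, a zinc finger factor, had log2 fold changes of -0.18 and -0.44. NRAS, a RAS GTPase, had -0.20 and -0.33, with 2 sites. HRAS was at 0.401 or less. The values of the growth factor receptors were small: IGF1R had -0.055 in both pairs with 3 sites, and TGFBR1 had -0.15 and -0.14.

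Among the cell cycle genes on the list, CDC25A, CDC34 and CCNJ had their more negative value in the siMYCN pair. CDC25A, a phosphatase that activates cyclin-dependent kinases, was at 46.3 and 46.6 in the siCon pair and at 45.0 and 32.7 in the siMYCN pair. CDC34, a ubiquitin-conjugating enzyme, had log2 fold changes of -0.18 and -0.53, and the cyclin CCNJ had -0.11 and -0.43. CDK6, a G1 kinase, had -0.10 and -0.16. Its partner CCND1 was at 426 and 398 and at 555 and 532, close to level. CCND2 was at 0.146 or less, and MYC at 0.221 or less. Whether the effect differed between the siRNA states could not be tested, because the difference between the pairs is the only residual; 19 of the 27 members (70.4%) were more negative in the siMYCN pair, against 53.4% of all genes.

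Other established targets differed little or had opposite signs in the pairs. MYCN, which holds the 2 7mer-A1 sites printed above, was at 1448.5 and 1432.8 in the siCon pair and at 1238.3 and 1197.2 in the siMYCN pair, a mean log2 fold change of the pairs of -0.032 ± 0.047 (SE of limma; adjusted p = 0.847), or 0.008 when rescaled. Both siMYCN libraries were below both siCon libraries, the direction of the siRNA's label. Its gene-level value may include the added open reading frame, whose 3′ end the labels do not describe. INSR, the insulin receptor, was at 28.4 and 30.4 and at 19.4 and 21.2 with 1 8mer. GALNT1, which starts O-glycosylation, was at 35.0 and 28.8 and at 23.4 and 27.7. It had opposite signs in the pairs, and it holds an 8mer.

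**Figure D2:**
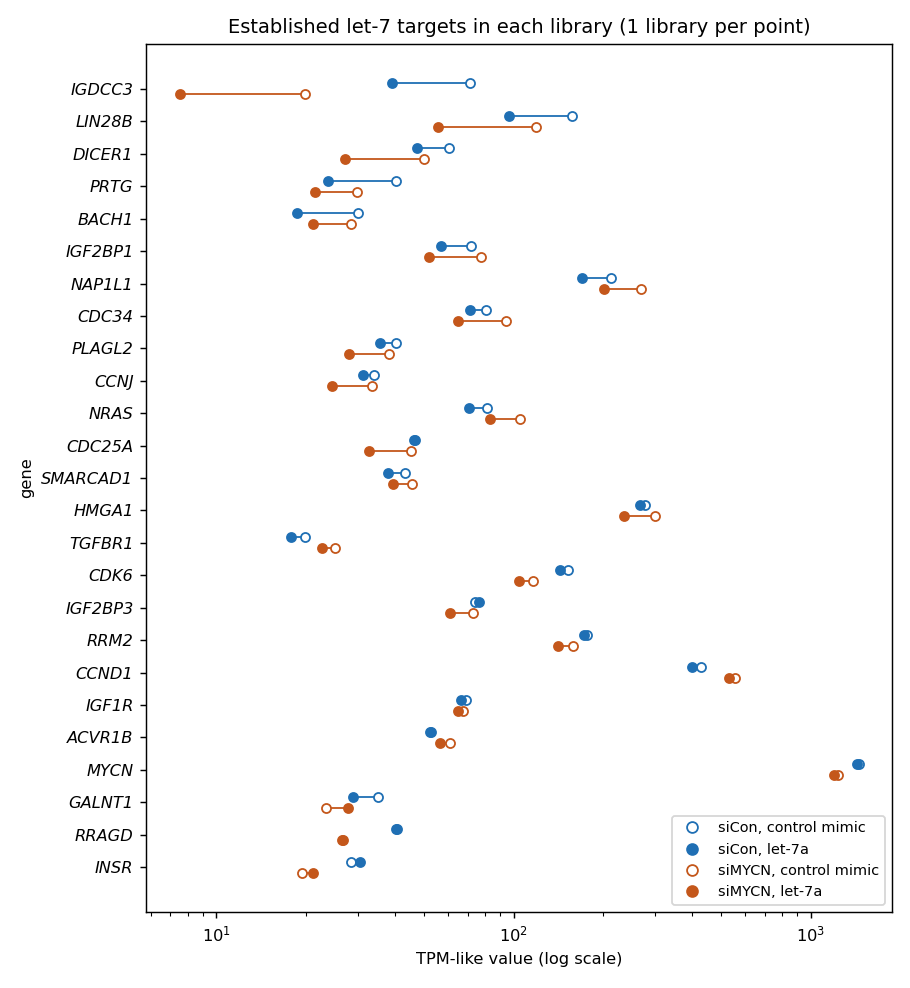
TPM-like values on a log axis of 25 established let-7 targets with a mean of at least 20, in each of the 4 libraries, ordered by log2 fold change, with open points for the control mimic and filled points for let-7a. The filled point lies left of its open partner in both siRNA states for 19 of these 25 genes, and IGDCC3 (71.2 to 38.9 and 19.8 to 7.54) has the longest bars.

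The other 25 established targets had a mean under 20, 10 of them under 1, and 13 were lower in both pairs. These genes were below the level tested. ARID3A, an ARID domain transcription factor, was at 14.6 and 8.99 in the siCon pair and at 18.8 and 5.84 in the siMYCN pair. HIC2, a transcriptional repressor with 4 sites, was at 17.1 and 12.7 and at 19.8 and 7.55. For both genes each let-7a library was below both controls. ARID3B, HMGA2 and TRIM71 had log2 fold changes of -0.50 and -0.76, of -0.44 and -0.57, and of -0.26 and -0.72. The glycosyltransferase GXYLT1 had -0.43 and -0.57. HMGA2 shows a limit of the site classes: its longest annotated 3′ UTR ends in another exon and holds no 7mer or 8mer, whereas another of its 7 annotated 3′ UTRs holds 7.

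A wider list of predicted targets was also mostly lower. Of 99 listed genes 47 had a mean of at least 20, and 34 (72.3%, against 35.9% of all genes) were lower in both pairs, with medians of -0.095 and -0.12. By limma 13 were lower at an unadjusted p under 0.05, against 5.47% of all genes, and 0 passed adjustment over all genes. NID2, a basement membrane nidogen with 1 7mer-A1, was the only member called with rescaled values (limma adjusted p = 0.00576), where 0.317% of all genes were called lower. It was at 65.4 and 49.9 in the siCon pair and at 70.9 and 27.9 in the siMYCN pair. The deubiquitinase YOD1 was at 27.4 and 20 and at 26.3 and 20.2, the ceramide glucosyltransferase UGCG at 40.5 and 31.6 and at 58.6 and 43.2, and PDE12, a mitochondrial RNA exonuclease, at 30.2 and 20.6 and at 35.9 and 28.9. YOD1 and PDE12 each had both let-7a libraries below both controls, while UGCG overlapped across the siRNA states. The adaptor TBKBP1 had log2 fold changes of -0.32 and -0.93.

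Within the lists, members with an 8mer were lower than those with a 7mer-A1. The 15 established targets whose best site was an 8mer had medians of -0.18 and -0.40 in the siCon and siMYCN pairs, the 6 with a 7mer-m8 had -0.12 and -0.34, and the 5 with a 7mer-A1 had -0.096 and -0.059. In the predicted list the 17 with an 8mer had -0.11 and -0.12, the 20 with a 7mer-m8 had -0.092 and -0.14 and the 8 with a 7mer-A1 had -0.014 and -0.069. The 2 predicted targets with no site in the longest 3′ UTR had -0.22 and -0.41, lower than each site class of that list. Each of these 2 holds 1 site in another of its annotated 3′ UTRs, so they are not targets without any site. These groups are small and their differences were not tested.

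Among all genes, values followed the seed sites within a narrow range. A 3′ UTR was found for 5613 genes, and 17.7% of these held a 7mer or 8mer site. The median over both pairs was -0.091 for 212 genes with an 8mer, -0.062 for 377 with a 7mer-m8, -0.055 for 403 with a 7mer-A1, -0.055 for 559 with a 6mer and -0.026 for 4062 with none. Of the 8mer genes 49.5% were lower in both pairs, of the 7mer-m8 genes 42.7%, of the 7mer-A1 genes 43.2% and of the genes with no site 33.5%. In the siCon pair the 8mer, 7mer-m8 and 7mer-A1 medians lay at -0.056, -0.057 and -0.056. In the siMYCN pair the 8mer median was -0.11, below the 7mer medians of -0.068 and -0.067. Whether the pairs differ in this was not tested. Rescaled by median ratios, the medians were -0.052, -0.024, -0.015 and 0.013 for 8mer, 7mer-m8, 7mer-A1 and no site, the same order.

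**Figure D3:**
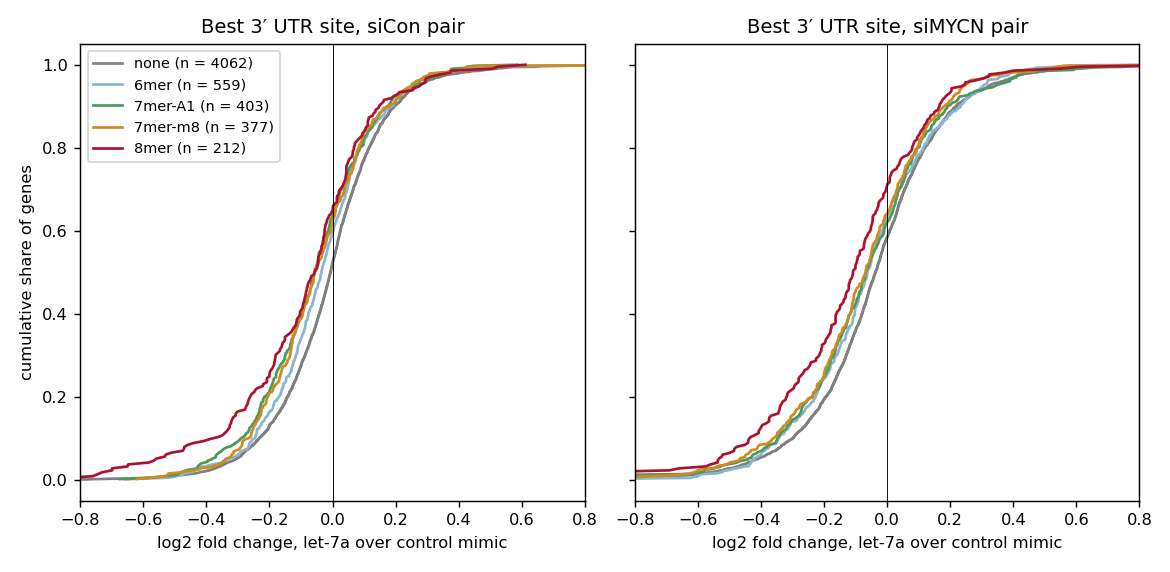
Cumulative share of genes (y axis) against the log2 fold change of let-7a over control mimic (x axis) by the best let-7a site in the longest 3′ UTR, for the siCon pair (left) and the siMYCN pair (right). The curve of the 212 8mer genes runs left of the 4062 genes without a site, by medians of -0.056 against -0.006 (siCon) and -0.11 against -0.038 (siMYCN).

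The number of sites gave no order that held in both pairs. The median over both pairs was -0.063 for 796 genes with 1 site, -0.082 for 155 with 2 and -0.097 for 41 with 3 or more. In the siCon pair alone these medians were -0.057, -0.035 and -0.152, and in the siMYCN pair alone -0.070, -0.131 and -0.055. Genes with many sites also have longer 3′ UTRs, with a median of 7024 bases at 3 or more sites against 1224 at none. Within the short, middle and long UTR length groups, each holding about as many genes, genes with a site had medians of -0.082, -0.077 and -0.062, and genes with none -0.025, -0.026 and -0.027. Within groups of low, medium and high expression the medians were -0.066, -0.057 and -0.080 with a site and -0.036, -0.031 and -0.018 with none. These are descriptions of the 4 libraries with no test.

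Further comparisons of site context were chosen after the data were seen. Genes with a 7mer or 8mer match only in the coding sequence (705) had a median of -0.048, against -0.022 for 3357 with no match in either region. The 54 genes in which a site is preceded, within 14 bases, by the letters ACAA, a match to let-7a bases 13 to 16, had a median of -0.145, against -0.065 for the other 938 with a site. In this smaller group 59.3% were lower in both pairs, against 43.5%. Genes with an 8mer to let-7a-3p, miR-9-5p, miR-1-3p, miR-122-5p or miR-125b-5p and no let-7a site had medians between -0.037 and -0.017. Without that exclusion the lowest of these medians was -0.048, for let-7a-3p.

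The 10 genes with 2 or more sites and the lowest values were IGDCC3, LIN28B, FBXO22, DICER1, PRTG, SREK1IP1, ERO1L, BACH1, METTL14 and TROVE2. FBXO22, the substrate receptor of a ubiquitin ligase, was at 26.9 and 19.8 in the siCon pair and at 39.4 and 19.7 in the siMYCN pair. ERO1L, an oxidase that forms disulfide bonds in the endoplasmic reticulum, was at 126 and 103 and at 110 and 63.1. In both genes each let-7a library was below both controls, and limma called both when rescaled (adjusted p = 0.0488 and 0.0275). METTL14, a subunit of the m6A RNA methyltransferase, was at 33.9 and 21.2 and at 30.6 and 24.4. TROVE2, the Ro60 RNA-binding protein, had log2 fold changes of -0.31 and -0.60, and SREK1IP1 had -0.70 and -0.44. CALML4 and ARIH1 also hold 2 and 4 sites. ARIH1, a ubiquitin ligase named here after its values were seen, was higher, at 25.3 and 60.2 and at 31.3 and 40.6.

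When genes were ranked by whichever pair showed less change, the 10 lowest, of which 5 hold a 7mer or 8mer, included IGDCC3, STX10, LIN28B, XYLT2, MRPL40, SNRPD3, RPL23A and ERGIC2. STX10, a syntaxin of the trans-Golgi, holds none and was at 36.1 and 20.8 in the siCon pair and at 42.0 and 21.6 in the siMYCN pair. XYLT2, a xylosyltransferase that starts proteoglycan chains, was at 26.5 and 17.3 and at 28.9 and 16.5, also with no site. STX10 and XYLT2 each had both let-7a libraries below both controls. SNRPD3, a core spliceosome protein, had -0.77 and -0.50, and ERGIC2, which cycles between endoplasmic reticulum and Golgi, had -0.46 and -0.54 with a 7mer-m8. RPL23A, at -0.58 and -0.47, has many processed copies, so its value is uncertain.

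The 10 highest by the same ranking were FAM195A, FKSG61, SATB1, FKSG56, RUNDC3A, EGR1, CHODL, C7, TLX2 and UNKL, and 0 of them had a 7mer or 8mer found. FAM195A was at 22.9 and 59.3 in the siCon pair and at 19.3 and 40.5 in the siMYCN pair, a mean log2 fold change of the pairs of 1.19 ± 0.13 (SE of limma; unadjusted p = 0.000191, adjusted p = 0.596). SATB1, a chromatin organiser, was at 11.9 and 25.0 and at 21.3 and 31.9. EGR1, an immediate early transcription factor, was at 21.4 and 30.8 and at 22.1 and 48.0, and the homeobox gene TLX2 at 48.5 and 68.1 and at 40.7 and 72.2. FAM195A, SATB1, EGR1 and TLX2 had both let-7a libraries above both controls, a pattern whose share over all genes is not given. C7, a complement component, was at 27.5 and 38.8 and at 27.0 and 91.7. FKSG61 and FKSG56 had no 3′ UTR matched by symbol and are uncertain.

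Of the 18 genes that limma called lower on rescaled values, 10 held a 7mer or 8mer, and of the 35 called higher 2 did, PLEKHA6 and ARIH1; 17.7% of all genes with a 3′ UTR hold one. Beside those already named the lower calls with a site included HDHD1, a nucleotide phosphatase with an 8mer, at 62.7 and 51.6 in the siCon pair and at 61.1 and 31.2 in the siMYCN pair. ISCA2, which assembles mitochondrial iron-sulfur clusters, was at 49.8 and 37.6 and at 33.8 and 18.1. The lower calls without a site included PDIA5, a protein disulfide isomerase, at 53.9 and 39.0 and at 73.0 and 37.9. These genes were named after their values were seen.

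The genes of let-7 maturation, a list that includes LIN28B and DICER1, were mostly lower. Of 14 listed genes 9 had a mean of at least 20. All 9 had a log2 fold change over both pairs below 0, against 3409 of all 5672 genes. Lower in both pairs were 7 (77.8%, against 35.9% of all genes). DGCR8, the RNA-binding partner of DROSHA in the nuclear Microprocessor, was at 29.2 and 23.6 in the siCon pair and at 32.0 and 21.4 in the siMYCN pair, with both let-7a libraries below both controls and no let-7a site. DROSHA had log2 fold changes of -0.20 and -0.057, and the export receptor XPO5 had -0.087 and -0.070. ZCCHC11, a uridylyltransferase that tails the precursors LIN28 holds, was under the mean of 20 at 15.7 and 11.1 and at 18.1 and 8.29. DIS3L2, the exonuclease that degrades these tailed precursors, was at 8.52 and 8.58 and at 8.08 and 12.6.

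The genes of the silencing complex, which act downstream of a mature microRNA, showed no common direction. Of 14 genes 4 were lower in both pairs (28.6%, near the 35.9% of all genes). Their median over both pairs was -0.021, or 0.019 when rescaled. AGO2, the Argonaute that can slice its target, was at 65.1 and 63.4 and at 60.5 and 59.3, and its 3′ UTR holds 3 sites. DDX6, a helicase of mRNA decay, had -0.16 and -0.13, and PAN3, a subunit of a deadenylase, had 0.17 and 0.19. Hosts of let-7 genes also lacked a common direction, with 1 of 4 lower and 1 higher in both pairs (35.9% and 21.3% of all genes).

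G2/M genes were lower as a group: 21 of 32 (65.6%, against 35.9% of all genes) were lower in both pairs, the medians were -0.071 and -0.12, and limma gave 7 lower at an unadjusted p under 0.05 (5.47% of all genes were) and 0 after adjustment. The condensin subunits NCAPG and SMC4 had log2 fold changes of -0.34 and -0.49 and of -0.41 and -0.39. SMC4 was at 35.9 and 26.8 in the siCon pair and at 31.3 and 23.6 in the siMYCN pair, both let-7a libraries below both controls. The kinetochore genes CENPF and CENPE had -0.33 and -0.38 and -0.23 and -0.55. PLK1, CENPA and PRC1, also on the list, were within 0.093 of 0 in both pairs. Only 3 of the 32 genes hold a 7mer or 8mer.

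G1/S genes had unlike values in the siRNA states, a difference with no test. Their median was 0.032 in the siCon pair and -0.17 in the siMYCN pair, and 24 of 25 (96.0%) were more negative in the siMYCN pair, against 53.4% of all genes. CDT1, which licenses replication origins, was at 54.8 and 56.8 in the siCon pair and at 48.6 and 25.2 in the siMYCN pair, so the siMYCN let-7a library alone stood apart. PCNA, the replication clamp, was at 696 and 711 and at 701 and 577, and CDC6 at 114 and 120 and at 114 and 87.9, with the same pattern. CCNE2, a G1/S cyclin, went the other way at 19.6 and 23.3 and at 15.4 and 22.2. Limma called 0 of these genes, and only RRM2 holds a 7mer or 8mer. All such differences between the pairs rest on the comparison of 2 libraries with 2.

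Noradrenergic genes, which define this neuroblastoma cell type, had medians of 0.11 and 0.19, with 10 of 16 higher in both pairs (21.3% of all genes were) and 5 lower in both. Their median over both pairs, 0.160, was 0.097 for the 21 with a mean of at least 5 and 0.047 for all 22 with no filter. With rescaled values limma called 5, all higher (0.617% of all genes were): CHGA, CHGB, SATB1, SLC6A2 and GATA2. CHGB, a granin of dense-core secretory granules, was at 438 and 557 in the siCon pair and at 633 and 2275.2 in the siMYCN pair. CHGA was at 687 and 847 and at 489 and 1157.3, so for both granins the library with let-7a and siMYCN was the highest. SLC6A2, the noradrenaline transporter, was at 179 and 216 and at 156 and 207, and the transcription factor GATA2 at 406 and 446 and at 513 and 679. DBH, which makes noradrenaline, had log2 fold changes of 0.20 and 0.17. HAND1 and ISL1, transcription factors of the sympathetic lineage, had -0.20 and -0.52, and -0.13 and -0.43. HAND1 holds an 8mer.

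Neuronal genes had medians of 0.008 and 0.18. Of 20 genes, 10 were higher in both pairs (21.3% of all genes were) and 3 lower in both (35.9% of all genes were). In the siMYCN pair 5 of 20 (25.0%) were more negative, against 53.4% of all genes. Lower in both were GAP43 (-0.014 and -0.13), SCG3 (-0.13 and -0.023) and SNAP25 (-0.003 and -0.004). NEFL, NEFM and CNTN1 were among those with opposite signs. STMN2, a microtubule regulator of growing axons, was at 393 and 397 in the siCon pair and at 203 and 352 in the siMYCN pair, so the siMYCN let-7a library was nearer to the siCon level. TUBB3, the neuronal tubulin, was at 147 and 155 and at 166 and 231. ELAVL3, a neuronal RNA-binding protein, had 0.27 and 0.26.

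**Figure D4:**
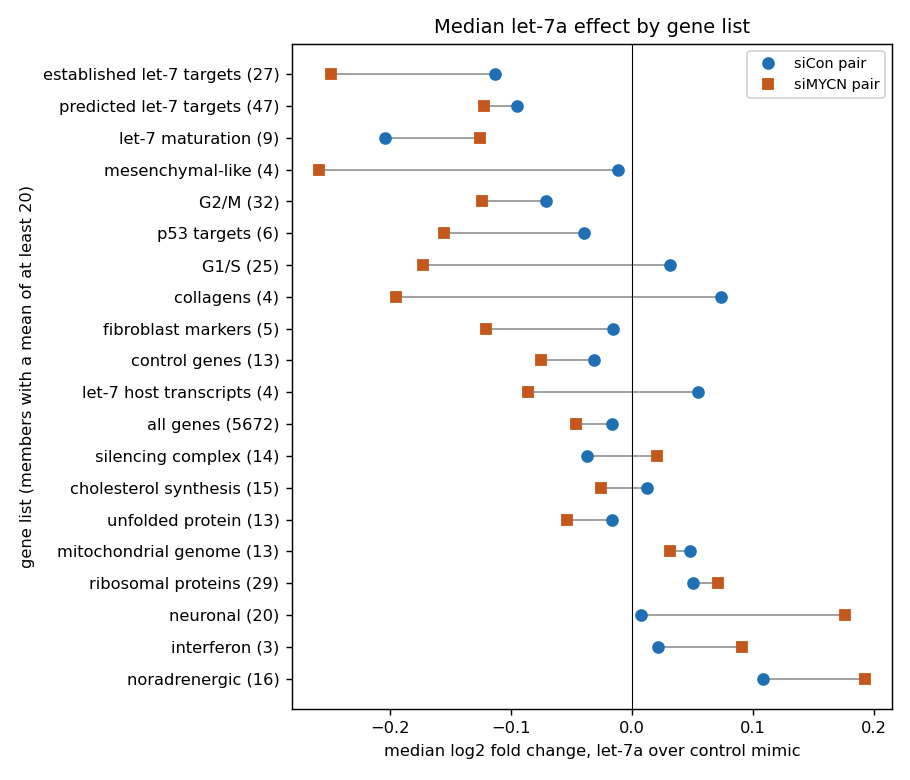
Median log2 fold change of let-7a over control mimic (x axis) for each gene list (y axis, number of members with a mean of at least 20) in the siCon pair (circles) and the siMYCN pair (squares). Established targets are lowest by the median over both pairs (-0.11 and -0.25), noradrenergic genes highest (0.11 and 0.19), and G1/S genes lie on both sides of 0 (0.032 and -0.17).

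Ribosomal protein genes were slightly higher: 21 of 29 were above 0 over both pairs, against 2263 of all 5672 genes. Of the 29, 17 were higher in both pairs (21.3% of all genes were). The medians were 0.051 and 0.071 (0.10 over both pairs when rescaled). RPL37 was at 289 and 327 in the siCon pair and at 436 and 531 in the siMYCN pair. RPL8, at 38.1 and 60.7 and at 59.2 and 24.1, went opposite ways; ribosomal protein genes have near-identical copies that can divide reads, so such values are uncertain. Mitochondrial genome transcripts had medians of 0.048 and 0.032, and 10 of 13 were higher in both pairs (21.3% of all genes were).

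The p53 target CDKN1A, the cell cycle inhibitor p21, was at 9.55 and 10.1 in the siCon pair and at 31.1 and 63.1 in the siMYCN pair, and its 3′ UTR holds an 8mer. The other 5 p53 targets with a mean of at least 20 were below 0 over both pairs. Listed p53 targets under that mean lay on both sides of 0, such as TP53INP1 above it and BBC3 below it. Collagens were few: of 18 listed genes 4 had a mean of at least 20, and COL5A1 was at 43.5 and 42.6 and at 28.9 and 16.1. SPARC, a matrix protein on the mesenchymal-like list, was at 313 and 259 and at 132 and 82.2, and limma called it lower when rescaled (adjusted p = 0.0253). Cholesterol synthesis, unfolded protein and interferon genes had medians over both pairs of -0.007, 0.011 and 0.10, the last from 3 genes. The control genes had -0.056, with TFRC, the transferrin receptor, at -0.24 and -0.42.

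The libraries carried the markers of the labelled cell type. PHOX2A, HAND2 and DBH were at 566, 232 and 346 or more in every library, while TH, the first enzyme of catecholamine synthesis, was at 6.01 to 11.6. The 8 epithelial markers summed to between 10.4 and 17.2, the 8 blood markers to between 8.48 and 9.89 and the 8 Schwann markers to between 26.2 and 29.5, with EPCAM at 1.96 or less, PTPRC at 0.219 or less and SOX10 at 2.11 or less. The 9 fibroblast markers summed to 426 and 403 in the siCon pair and to 448 and 386 in the siMYCN pair, mostly from THY1, LUM and PDGFRB, while COL1A2 was at 0.185 or less and FAP at 0.00343 or less. LUM was at 116 and 91.2 and at 123 and 83.9. The part of these markers in the other results was not tested. Mitochondrial transcripts held 28.4% to 32.1% of a library. Read depth is unknown, and no counting error is given.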

How the data were processed

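PolyA RNA was sequenced in 4 libraries, grouped by their source labels, with 1 library in each of 4 groups. The authors deposited natural log values per gene. Back-transformed as exp(x) - 1, they totalled 855810.7 to 862049.0 per library, whereas base 2 would give 143168.2 to 147547.8, which settled the base. The submitters' processing notes list GRCh38, HISAT 0.1.6 and Salmon 0.3.2. Annotation, filters and how the log was taken are not given in the sources. Read depth is unknown.

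Vector rows (11) were set apart. Of the gene rows 28 carried names turned into calendar dates and are not named, 12 of them with a mean of at least 20. Fold changes are differences of log2(value + 1), which understates the change of low genes, and "over both pairs" means the average of the 2 pairs. limma-trend was fitted to 5672 genes with siRNA state and mimic as additive terms and 1 residual degree of freedom, the departure from additivity, with Benjamini-Hochberg adjustment over all of them. It was also run on simulated additive data with noise taken from these libraries, and the outcome is not given here. Such data cannot show how the fit handles real differences between the pairs. Measures of spread cover these 4 libraries, not cultures. GENCODE release 29 3′ UTRs were matched by symbol, 178 through an older symbol.

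The members and gene lists were chosen with earlier results of these data known. Named genes were the 10 at each end of a ranking by whichever pair showed less change, the 5 highest and 5 lowest differences between pairs, established targets and maturation genes, up to 4 members of each other list, and the 10 lowest genes with 2 or more sites. Other genes were named after their values were seen. Some genes that these rules name are not reported here, and they stay in the counts and medians of their lists. Alternatives were pseudocounts of 0.1 and 5, means of at least 5 and 50 or no filter, 2 rescalings, limma without a trend or with robust variance, other fold sizes, each pair alone, and other 3′ UTR choices. Python 3.11.15, pandas 2.3.3, NumPy 2.4.6, SciPy 1.17.1, matplotlib 3.10.9, R 4.3.3 and limma 3.58.1 were used.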

Additional observations from a re-analysis of the deposited data

Results flagged for a closer look

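The let-7a effect had opposite signs in the pairs for the genes below. The difference of each, siMYCN pair minus siCon pair on the log2 scale, was not tested, because the groups hold 1 library each. Values are given with the control mimic first and let-7a next. FRMD6 was at 43.9 and 22.9 in the siCon pair and at 29.4 and 37.8 in the siMYCN pair, a difference of 1.261. ZNF428 was at 24.2 and 22.5 and at 27.4 and 58.6, a difference of 1.167. KRTCAP2, a subunit of the oligosaccharyltransferase complex, was at 22.1 and 13.9 and at 19.1 and 27.4, a difference of 1.127. PACSIN3, a membrane-shaping protein of endocytosis, was at 28.8 and 40.7 and at 32.6 and 9.88, a difference of -2.110. RPL8, a ribosomal protein with near-identical copies, differed by -1.924. IST1, which acts with the ESCRT machinery, was at 15.9 and 28.5 and at 23.7 and 12.1, a difference of -1.715. CALML4 was at 15.4 and 23.6 and at 29.4 and 15.6, a difference of -1.462. SLC18A3, the vesicular acetylcholine transporter, was at 40.6 and 42.0 and at 32.1 and 11.6, a difference of -1.444. CDT1 differed by -0.969, and the proteoglycan DCN, at 24.3 and 19.1 and at 28.4 and 35.1, by 0.627. PACSIN3, RPL8, IST1, SLC18A3 and CDT1 had their lowest value in the siMYCN let-7a library.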

How the results depend on the processing

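Rescaling by median ratios raised the limma calls from 0 to 35 higher and from 0 to 18 lower genes, whereas rescaling without mitochondrial transcripts left both at 0. The former moved the site class medians to -0.052 (8mer), -0.024 (7mer-m8), -0.015 (7mer-A1) and 0.013 (no site), and the shared 1.5-fold count of higher genes from 1 to 3. Of the 122 genes named by rule and tested it reversed 6 near 0, to 0.008 for MYCN, 0.020 for GALNT1, 0.010 for COL6A2, 0.021 for VIM, 0.009 for HUWE1 and 0.019 for DCN. Other listed genes near 0 also crossed it, such as AGO2 (-0.033 to 0.006). The median of all genes over both pairs went from -0.034 to 0.005. The shared counts of higher and lower genes, 1 and 4, were 19 and 24 at a mean of at least 5, 0 and 1 at 50, 90 and 79 with no filter and 28 and 65 at the lowest fold size tried. At 2-fold 0 lower genes were left. The 7mer-m8 median was -0.027 with no filter and -0.072 with the 3′ UTR taken from the longest coding sequence. The 7mer-A1 median was -0.034 with no filter, -0.074 at a mean of at least 50, -0.047 when rescaled without mitochondrial transcripts and -0.067 in the siMYCN pair alone. Causes of these shifts were not tested, apart from the fewer or more genes that each filter or fold size admits by construction. The median of the established targets stayed between -0.11 and -0.25 in all alternatives run, the ends being the siCon and the siMYCN pair alone. Taking the best site in any annotated 3′ UTR, a choice made after seeing the data, gave -0.096 for 234 8mer genes and -0.025 for 3942 with none. Of 122 named genes with a test, the 2 other pseudocounts left each on its side of the threshold and in its direction. Libraries were paired within the siRNA state, which is a term of the fit. No pairing of replicates was possible, because each group holds 1 library and the labels carry no replicate numbers.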

Other observations

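Counted by gene-level values, MYCN took the largest share of let-7a sites in each library. Multiplying each gene's TPM-like value by its number of 7mer and 8mer sites and summing over genes, MYCN held 2.98% and 3.07% of the sum in the siCon pair (miRCon library first) and 2.42% and 2.49% in the siMYCN pair. RPL38 followed with 1.49% to 2.37%, RPS29 with 1.19% to 1.61% and CCND1 with 0.85% to 1.11%. The sum itself was 97364.4 and 93202.5 in the siCon pair (control mimic, then let-7a), and 102330.1 and 96213.0 in the siMYCN pair. Sites are those of the longest annotated 3′ UTR, which the transcripts of these cells need not use. The MYCN share is an upper value if its level includes the added open reading frame without that 3′ UTR, and in the siMYCN let-7a library it was close to that of RPL38 (2.49% and 2.37%).

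Among the 11 vector rows, the kanamycin marker was at 195 and 221 in the siCon pair (control mimic, then let-7a) and at 196 and 225 in the siMYCN pair, and the ampicillin marker at 2.86 and 2.92 and at 4.16 and 2.3. The other rows were listed at 0 in every library.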
